A study of Mus musculus with 10 samples.

Results

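The heat shock response of ASZ001 cells was followed through 10 genes, Hsf1, Hspa1a, Hspa1b, Hspa8, Hsp90aa1, Dnajb1, Hsph1, Hspb1, Bag3 and Hspd1, which were chosen by symbol as the transcription factor of the response and chaperones it is known to induce. All 10 were found among the 17658 gene rows of the SB431542 table and the 16719 gene rows of the T-5224 table. ASZ001 is an established murine basal cell carcinoma (BCC) line, used by the study as a model of resistance to Smoothened inhibitors, and every library came from this 1 line. All cells were kept in 154CF medium at 0.05 mM CaCl2, where chelated FBS was 2% during growth and was lowered to 0.2% for the 24 h of the experiment. The groups were DMSO (n = 3) and 10 µM SB431542 (n = 3) in one experiment, and DMSO (n = 2) and 20 µM T-5224 (n = 2) in the other. SB431542 inhibits ALK5, the type I receptor of TGFß, and T-5224 inhibits AP-1, the Fos and Jun family of transcription factors.

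Heat shock factor 1, the product of Hsf1, is held inactive by chaperones in unstressed cells. When unfolded proteins draw these chaperones away, it forms trimers, binds heat shock elements in the promoters of chaperone genes and raises their transcription. The induced proteins refold or clear damaged proteins, and many tumor cells depend on high levels of them.

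Depth, estimated from the steps between low values, lay between 31.8 and 51.5 M reads per library. DMSO replicate 1 of the SB431542 experiment stood apart from its group, with a spread of 0.272 (SD of log2 differences from the rest of its group) beside 0.123 to 0.190 in the other 5 libraries. Its Rn45s, a ribosomal RNA precursor, was at 770.3 RPKM beside 1868 to 2229 RPKM in those. The T-5224 libraries held 1862 and 5184 RPKM of Rn45s beside 3401 and 3473 RPKM with DMSO. RPKM are reads per kilobase of gene and scaled to the size of the library.

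After T-5224, 8 of the 10 genes rose and 2 fell (limma, adjusted p under 0.05). The rises ran from 1.5-fold for Hsf1 to 4.04-fold for Hsp90aa1, as ratios of mean RPKM. Both falls were small, to 0.896 of the DMSO mean for Dnajb1 and to 0.889 for Bag3. Of all 10809 genes tested with T-5224, 40.3% were higher and 39.4% were lower at the same threshold, so most expressed genes moved. More than 2-fold rises (adjusted p under 0.05) were met by 6 of the 10 genes and by 10.4% of all genes tested. Falls of that size were met by none of the 10 and by 10.6% of all genes. Of the 6, all but Hsph1 had 46.1% to 74.8% of their sequence windows repeated in the genome, as given below. Their fold changes carry that uncertainty. With SB431542, 2 of the 10 genes were higher, Hsp90aa1 and Hspd1, and 2 were lower, Hspa1a and Hspb1, where 10.2% of the 10842 genes tested were higher and 10.0% were lower. None of the 10 moved by more than 2-fold with SB431542, a size reached upward by 0.231% and downward by 0.581% of the genes tested. Over the 10 genes, the median of the log2 fold changes was 1.28 in the T-5224 experiment and 0.01 in the SB431542 experiment, where all genes tested gave 0.00 and 0.01.

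**Figure D1:**
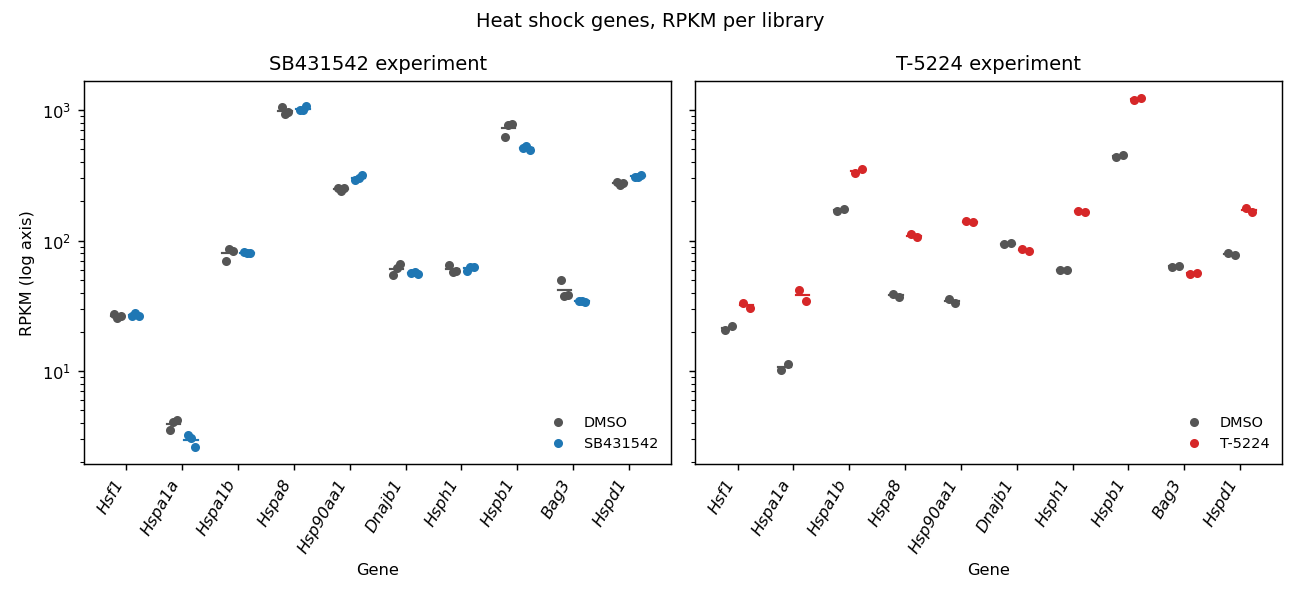
Level of each of the 10 genes in every library, in RPKM on a log axis, in the SB431542 experiment (left, 3 DMSO and 3 SB431542 libraries) and the T-5224 experiment (right, 2 DMSO and 2 T-5224 libraries). Points are libraries and short lines are group means. In the T-5224 experiment the treated libraries lie lower than DMSO for Dnajb1 and Bag3 and higher for the other genes.

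The promoters of these genes are shown because heat shock factor 1 acts through sequence that can be read there. Sequences are from RefSeq, build GRCm38.p6, for the 250 bases before each start site. Of the 10 genes, 7 had an entry, and Hsf1, Hspa8 and Hsp90aa1 did not. A heat shock element is a run of GAA units in alternating orientation with 2 bases between them. The motifs searched on both strands were 2 adjoining units in either order, GAANNTTC and TTCNNGAA, and the AP-1 element TGANTCA. Capitals mark each match. Hspa1b is not printed, since 247 of its 250 bases are the same as those of Hspa1a.
Hspa1a, chr17:34972157-34972406, minus strand: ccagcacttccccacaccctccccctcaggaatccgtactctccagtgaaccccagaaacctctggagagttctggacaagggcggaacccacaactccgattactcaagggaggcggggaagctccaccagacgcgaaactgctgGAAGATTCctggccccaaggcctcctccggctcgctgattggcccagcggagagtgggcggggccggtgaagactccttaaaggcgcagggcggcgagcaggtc
Hsph1, chr5:149636337-149636586, minus strand: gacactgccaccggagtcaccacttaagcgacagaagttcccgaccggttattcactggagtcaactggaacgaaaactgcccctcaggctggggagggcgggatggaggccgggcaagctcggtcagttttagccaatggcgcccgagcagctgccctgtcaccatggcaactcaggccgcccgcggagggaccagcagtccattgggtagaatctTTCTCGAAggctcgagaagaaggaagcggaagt
Hspb1, chr5:135887669-135887918, plus strand: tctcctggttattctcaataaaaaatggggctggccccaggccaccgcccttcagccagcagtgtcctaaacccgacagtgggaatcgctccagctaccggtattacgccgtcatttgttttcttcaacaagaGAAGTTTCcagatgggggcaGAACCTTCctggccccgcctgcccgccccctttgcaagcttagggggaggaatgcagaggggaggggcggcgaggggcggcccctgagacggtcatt
Dnajb1, chr8:83607925-83608174, plus strand: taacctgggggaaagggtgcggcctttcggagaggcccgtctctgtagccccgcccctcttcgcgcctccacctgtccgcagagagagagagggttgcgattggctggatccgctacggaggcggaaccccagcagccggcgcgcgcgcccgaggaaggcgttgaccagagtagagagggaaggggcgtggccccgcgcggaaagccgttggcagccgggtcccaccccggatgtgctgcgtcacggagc
Bag3, chr7:128523333-128523582, plus strand: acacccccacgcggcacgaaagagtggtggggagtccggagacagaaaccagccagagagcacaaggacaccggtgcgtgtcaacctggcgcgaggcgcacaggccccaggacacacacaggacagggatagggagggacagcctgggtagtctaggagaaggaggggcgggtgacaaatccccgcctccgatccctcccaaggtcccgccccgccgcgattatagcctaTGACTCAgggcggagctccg
Hspd1, 30 bases of the window before its second listed start, chr1:55088053-55088082, minus strand: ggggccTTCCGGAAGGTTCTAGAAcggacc

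The promoters of Hspa1a and Hspa1b each held 1 pair of units, at bases -104 to -97 counted from the start site. Hspb1 held 2 pairs, at -117 to -110 and at -97 to -90. Hsph1 held 1 pair, at -33 to -26, and its second listed start, a few bases downstream, has the same pair in view. Hspd1 had none before its first listed start and 3 overlapping pairs at -144 to -127 before the second, which together make an element of more than 2 units. Neither window of Dnajb1 nor that of Bag3 held a pair. The second window of Dnajb1 lies wholly downstream of its first listed start, so it is not promoter sequence of that start. Bag3 was the only gene of the 7 with an AP-1 element, at -20 to -14. Among all 32851 promoters of the table, 12.8% held either pair, 0.466% held an element of 3 units and 6.75% held the AP-1 element. So 5 of the 7 genes with an entry held a pair, and these 5 rose with T-5224, while the 2 without one were the 2 that fell. This pattern over 7 genes was not tested. Both falls were small, and each lost the threshold in some fits with 1 library left out. The rises of Hspa1a, Hspa1b, Hspb1 and Hspd1 carry the uncertainty of repeated sequence described below. The 5 are counted per gene over all its windows, whereas the shares over all promoters are per promoter. Hspa1a and Hspa1b, whose windows are nearly the same, count as 2. A match is a string of letters and not a shown binding site, and the absence of one covers these windows alone.

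**Figure D2:**
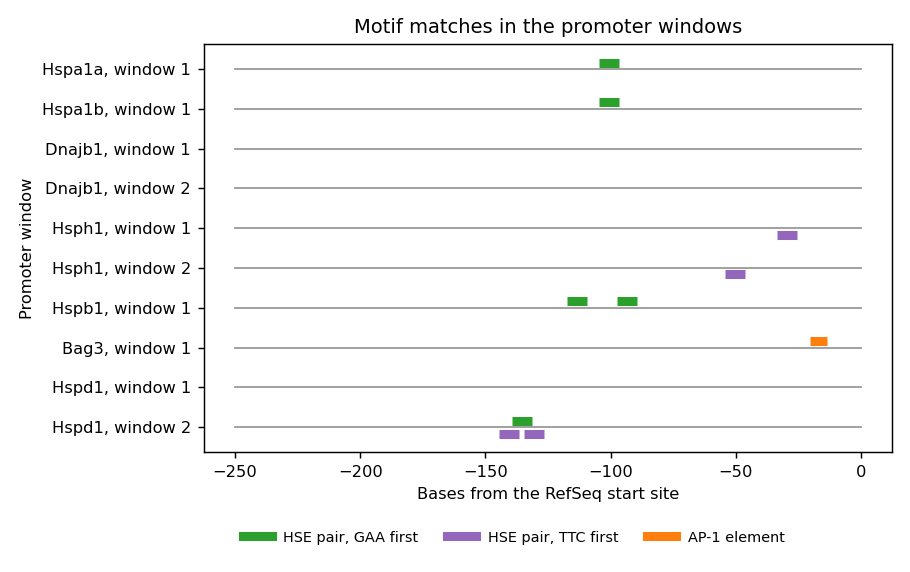
Motif matches in the 10 promoter windows of 7 genes, drawn by distance in bases from the RefSeq start site. Green and purple bars are pairs of heat shock units in either order and the orange bar is the AP-1 element; 5 genes hold a pair, Hspd1 before its second listed start only, and Dnajb1 and Bag3 hold none.

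Levels are given in RPKM, which divides reads by gene length. Repeated sequence, described below, may also affect them, so the order of genes within a table is uncertain. Among DMSO libraries in the SB431542 table, Hspa8 was highest at 984 ± 63.9 RPKM (SD, n = 3), followed by Hspb1 at 727 ± 91.7, Hspd1 at 274 ± 8.16 and Hsp90aa1 at 248 ± 5.66 RPKM. Hspa1b stood at 80.3 ± 8.89, Dnajb1 at 60.5 ± 5.58, Hsph1 at 60.2 ± 4.06, Bag3 at 42.0 ± 6.76, Hsf1 at 26.5 ± 1.05 and Hspa1a at 3.95 ± 0.355 RPKM. The libraries of Dnajb1 and Hsph1 overlapped in this order, and all other neighbours were apart. The DMSO order in the T-5224 table was Hspb1 at 444 ± 11.03 RPKM (SD, n = 2), Hspa1b at 171 ± 4.37, Dnajb1 at 94.6 ± 0.955, Hspd1 at 79.1 ± 1.62, Bag3 at 63.3 ± 1.02, Hsph1 at 59.3 ± 0.0382, Hspa8 at 38.0 ± 1.13, Hsp90aa1 at 34.5 ± 2.12, Hsf1 at 21.4 ± 1.05 and Hspa1a at 10.7 ± 0.792 RPKM, with no neighbours overlapping.

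The 2 tables thus differed most for Hspa8, whose DMSO level was 25.9 times higher in the SB431542 table than in the T-5224 table, and for Hsp90aa1, at 7.20 times. The ratio was 3.47 for Hspd1, 1.64 for Hspb1, 1.24 for Hsf1 and 1.01 for Hsph1, and it was below 1 for Bag3 (0.663), Dnajb1 (0.640), Hspa1b (0.469) and Hspa1a (0.368). Genes with copies elsewhere in the genome differed most. In NCBIM37, the assembly behind mm9, 74.8% of the 50-base windows of the Hspa8 transcript had more than 1 exact match, and the share was 68.4% for Hsp90aa1, 62.3% for Hspa1b, 61.0% for Hspa1a, 57.7% for Hspb1 and 46.1% for Hspd1. It was 0.768% for Dnajb1 and 0 for Hsf1, Hsph1 and Bag3. Over 9229 genes with at least 1 RPKM in both sets of DMSO libraries, the median ratio rose with this share, from 0.932 in 5876 genes with no repeated window to 12.1 in 41 genes with more than 80% repeated. Gapdh, with 85.6% repeated, was listed at a DMSO mean of 2281 RPKM in one table and 10.6 RPKM in the other. Its many processed copies are well known. How reads with several matches were counted is not given in the sources used here, and its part in the difference was not tested. Levels and fold changes of Hspa8, Hsp90aa1, Hspa1a, Hspa1b, Hspb1 and Hspd1 therefore carry this uncertainty. So do those of other list genes with repeated windows. Among them are the relatives Hspe1 (32.4% repeated, ratio 2.64), Ppid (27.5%, 3.28) and Dnaja1 (24.3%, 6.81). Some list genes not named here had larger shares, up to 78.2%, so the list counts below carry it too. No level was compared across tables by a test.

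**Figure D3:**
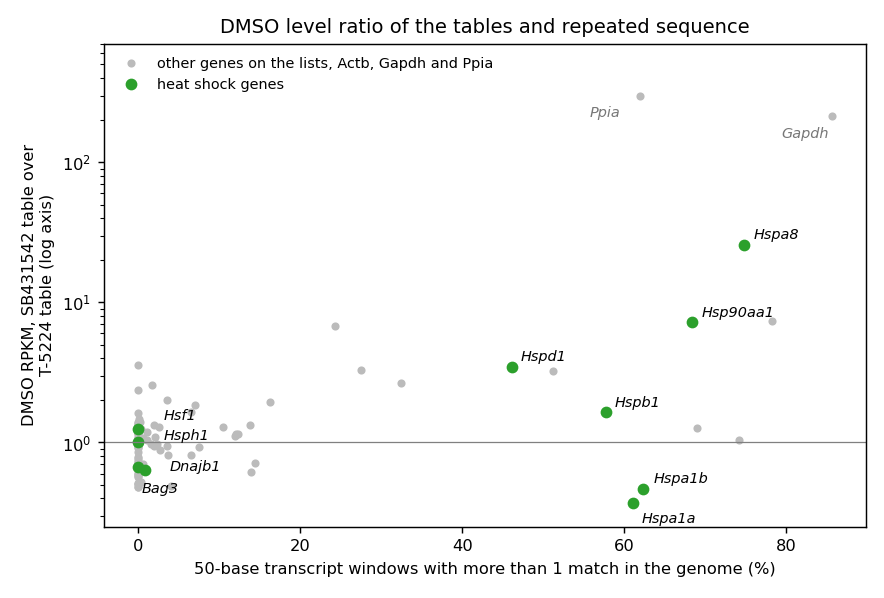
DMSO level in the SB431542 table divided by that in the T-5224 table (log axis) against the percentage of 50-base transcript windows with more than 1 match in the genome. Green points are the 10 heat shock genes and grey points are other genes of the lists with Actb, Gapdh and Ppia; Hspa8 lies at a ratio of 25.9 with 74.8% repeated, and Hsph1 at 1.01 with 0 repeated.

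Hsf1 (mm9 chromosome 15, 76307865 to 76331402, plus strand) encodes the factor itself, whose activity is mainly set by its protein state rather than by its mRNA. Its level in the T-5224 table was 20.6 and 22.1 RPKM in the DMSO libraries and 33.2 and 30.7 RPKM in the T-5224 libraries. Every treated library lay above both controls. The log2 fold change was 0.57 with a 95% interval of 0.43 to 0.71 (limma, adjusted p = 8.29e-06). In the SB431542 table, the DMSO libraries held 27.5, 25.4 and 26.6 RPKM and the SB431542 libraries 26.4, 27.7 and 26.3 RPKM. These groups overlapped, and the log2 fold change of 0.01 had an interval of -0.11 to 0.14 (adjusted p = 0.891).

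Hspa1a (chromosome 17, 35106144 to 35109069, minus strand) and Hspa1b (chromosome 17, 35093381 to 35096183, minus strand) are adjacent genes for the stress-inducible HSP70, and their proteins are almost the same. Of the windows of Hspa1a, 59.4% also occur in Hspa1b, so reads can be split between them and their separate values are uncertain. Hspa1a was the lowest of the 10 genes and rested on about 369 to 581 reads a library in the SB431542 table and 946 to 6349 in the T-5224 table. Hspa1a was at 10.2 and 11.3 RPKM with DMSO and at 42.1 and 34.5 RPKM with T-5224. Hspa1b was at 168 and 174 RPKM with DMSO and at 329 and 352 RPKM with T-5224. In both genes the treated libraries were all higher. The log2 fold change was 1.78 (interval 1.59 to 1.98, adjusted p = 8.12e-09, limma) for Hspa1a and 0.99 (interval 0.87 to 1.11, adjusted p = 1.4e-08) for Hspa1b, which stopped just short of a 2-fold change. With the RPKM of both genes added, the value was 1.06. Either DMSO replicate 2 or T-5224 replicate 1 left out gave 7 in place of 6 of the 10 genes beyond 2-fold.

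With SB431542, Hspa1a passed the test and Hspa1b did not. Hspa1a was at 3.55, 4.06 and 4.23 RPKM in the DMSO libraries and at 3.25, 3.06 and 2.62 RPKM in the SB431542 libraries, all of them lower than the controls. It fell by 0.36 on the log2 scale (interval -0.59 to -0.13, limma, adjusted p = 0.0425). Hspa1b was at 70.2, 86.9 and 83.8 RPKM with DMSO and at 82.4, 80.4 and 79.8 RPKM with SB431542, and these overlapped (log2 fold change 0.02, interval -0.18 to 0.21, adjusted p = 0.905). The fall of Hspa1a did not hold when both genes were added (log2 fold change -0.0007, adjusted p = 0.996). It also lost the threshold when any library but DMSO replicate 1 was left out, with adjusted p between 0.0719 and 0.142.

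Hspa8 (chromosome 9, 40609067 to 40613283, plus strand) encodes the constitutive cytosolic HSP70, Hsc70, which folds new proteins and strips clathrin from vesicles. It stood at 38.8 and 37.2 RPKM with DMSO and at 112 and 106 RPKM with T-5224, with no overlap. It rose by 1.51 on the log2 scale (interval 1.39 to 1.63, limma, adjusted p = 6.01e-10). In the SB431542 table it stood at 1053, 927 and 973 RPKM with DMSO and at 1004, 993 and 1069 RPKM with SB431542. These overlapped (log2 fold change 0.06, interval -0.10 to 0.21, adjusted p = 0.588).

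Hsp90aa1 (chromosome 12, 111928815 to 111940938, minus strand) encodes the inducible cytosolic HSP90, which holds kinases, steroid receptors and heat shock factor 1 itself. It showed the largest rise of the 10 with T-5224, from 36.0 and 33.0 RPKM to 140.5 and 138 RPKM. This was a log2 fold change of 2.00 (interval 1.87 to 2.13, limma, adjusted p = 7.65e-11) and ranked 229 from the top among the 10809 genes tested. With SB431542 the libraries were at 291, 303 and 316 RPKM against 251, 242 and 252 RPKM with DMSO, again all higher. There it rose by 0.29 (log2, interval 0.16 to 0.41, adjusted p = 0.0114). It lost the threshold without SB431542 replicate 2 (adjusted p = 0.0624) or replicate 3 (adjusted p = 0.0634).

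Dnajb1 (chromosome 8, 86132074 to 86135801, plus strand) encodes HSP40, the co-chaperone that hands substrates to HSP70 and stimulates its ATPase. It was at 93.9 and 95.3 RPKM with DMSO and at 85.9 and 83.6 RPKM with T-5224. Both treated libraries were lower, although by little. It fell by 0.16 on the log2 scale (interval -0.27 to -0.05, limma, adjusted p = 0.0136). Without DMSO replicate 2 or T-5224 replicate 2 the adjusted p was 0.0656 or 0.0787. In the SB431542 table it was at 54.6, 61.2 and 65.7 RPKM with DMSO and at 56.4, 57.6 and 55.6 RPKM with SB431542, which overlapped (log2 fold change -0.09, interval -0.26 to 0.07, adjusted p = 0.385). Without DMSO replicate 1 it passed the threshold there, at a log2 fold change of -0.17 (adjusted p = 0.0131).

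Bag3 (chromosome 7, 135667097 to 135690491, plus strand) encodes a nucleotide exchange factor of HSP70 that also routes damaged proteins to autophagy. It was at 62.6 and 64.0 RPKM with DMSO and at 55.9 and 56.7 RPKM with T-5224, so the groups were again apart and the treated one lower. It fell by 0.17 (log2, interval -0.28 to -0.05, limma, adjusted p = 0.0113). Leaving out DMSO replicate 2 or T-5224 replicate 1 gave an adjusted p of 0.0562 or 0.0621. With SB431542 the libraries were at 34.2, 34.5 and 33.8 RPKM against 49.8, 37.7 and 38.4 RPKM with DMSO. All were below the controls, of which replicate 1 stood high. The log2 fold change was -0.28 (interval -0.52 to -0.04) and did not pass (adjusted p = 0.0971), while without DMSO replicate 1 it was -0.15 and passed (adjusted p = 0.0112).

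Hsph1 (chromosome 5, 150416862 to 150438951, minus strand) encodes HSP105, an HSP110-type nucleotide exchange factor of HSP70, and has no repeated windows. It was at 59.4 and 59.3 RPKM with DMSO and at 169 and 165 RPKM with T-5224. The treated libraries were above both controls. Its rise was 1.49 on the log2 scale (interval 1.38 to 1.60, limma, adjusted p = 2.65e-10). In the SB431542 table it was at 64.9, 57.8 and 58.0 RPKM with DMSO and at 58.5, 63.1 and 63.0 RPKM with SB431542. The groups overlapped there (log2 fold change 0.03, interval -0.12 to 0.18, adjusted p = 0.756).

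Hspb1 (chromosome 5, 136363789 to 136365433, plus strand) encodes the small heat shock protein HSP25, the mouse form of HSP27, which binds unfolded proteins without ATP and is abundant in keratinocytes. It was at 436 and 452 RPKM with DMSO and at 1188 and 1228 RPKM with T-5224, all higher. It rose by 1.44 on the log2 scale (interval 1.33 to 1.56, limma, adjusted p = 4.45e-10). It had the highest RPKM of the 10 genes in both T-5224 libraries, an order that repeated sequence may affect. With SB431542 it went the other way. The DMSO libraries held 622, 773 and 788 RPKM and the SB431542 libraries 513, 532 and 499 RPKM, with none of the treated ones reaching a control. It fell by 0.49 on the log2 scale (interval -0.71 to -0.27, adjusted p = 0.0132). Leaving out SB431542 replicate 1, 2 or 3 gave an adjusted p of 0.0577, 0.0520 or 0.0666.

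Hspd1 (chromosome 1, 55134679 to 55145087, minus strand) encodes HSP60, the chaperonin of the mitochondrial matrix, and so acts outside the cytosol although heat shock factor 1 also raises it. It was at 80.3 and 78.0 RPKM with DMSO and at 179 and 167 RPKM with T-5224, again apart. It rose by 1.12 on the log2 scale (interval 1.001 to 1.24, limma, adjusted p = 5.25e-09). With SB431542 it was at 305, 308 and 320 RPKM against 281, 265 and 277 RPKM with DMSO, all higher. It rose by 0.18 there (log2, interval 0.06 to 0.30, adjusted p = 0.0441). This call was lost when any library but DMSO replicate 1 was left out, with adjusted p between 0.0822 and 0.169, and with quantile normalization the value was 0.08.

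**Figure D4:**
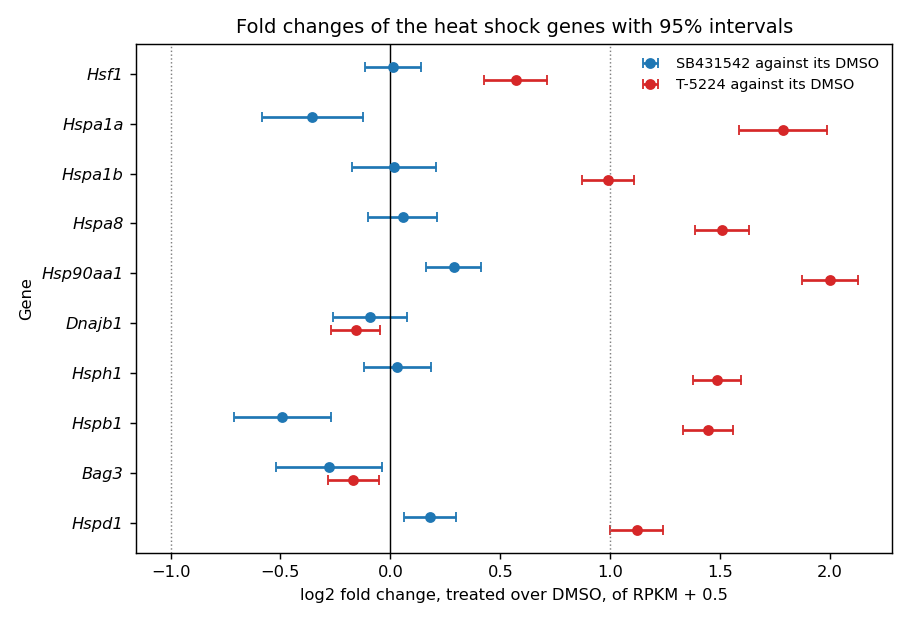
Log2 fold change of each gene, treated over DMSO on log2(RPKM + 0.5), with limma's 95% interval, unadjusted for the number of genes; dotted lines mark 2-fold changes. With T-5224 Hsp90aa1 is farthest right at 2.00 and Bag3 farthest left at -0.17, and with SB431542 all 10 points lie between -0.49 and 0.29.

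Set side by side, the interval with T-5224 lay wholly above that with SB431542 in 8 of the 10 genes. The intervals of Dnajb1 and Bag3 overlapped. How many of all genes have intervals apart in this way was not counted, and 40.3% of those tested were higher with T-5224. Doses, numbers of libraries and tables differed between the experiments, so the difference between the inhibitors was not tested. Among the co-chaperones of HSP70, Hsph1 rose with T-5224 while Dnajb1 and Bag3 fell slightly. The direction of each of these 3 genes with T-5224 was the same under median centring and quantile normalization.

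The wider chaperone network was read from lists of related genes, whose counts stand beside the 40.3% of all genes tested that were higher with T-5224 and the 39.4% that were lower. With T-5224, 13 of the 22 tested genes of the HSP70 system were higher and 7 were lower, with a median log2 fold change of 0.28. Those beyond 2-fold were Stip1, which joins HSP70 to HSP90 (95.5 ± 1.07 to 317 ± 0.825 RPKM, SD, n = 2, log2 fold change 1.73), Hspa4l, an HSP110 relative (1.2), and Dnaja4, an HSP40 (1.2). Dnaja1, the close relative of Dnajb1 in function, was at 13.4 ± 1.96 RPKM with DMSO and at 12.8 ± 0.696 RPKM with T-5224 and did not pass (limma, adjusted p = 0.582). In the HSP90 system 13 of 17 genes were higher and 2 were lower (median 0.40). Ppid (1.40), Ahsa1 (1.38), Fkbp4 (1.17), Aarsd1 (1.17) and Cacybp (1.04) rose by more than 2-fold, of which Ahsa1 stimulates the HSP90 ATPase and Fkbp4 and Ppid serve its steroid receptor complexes. Hsp90ab1, the constitutive cytosolic HSP90, rose less than Hsp90aa1, from 1616 ± 17.2 to 2118 ± 44.5 RPKM (log2 fold change 0.39, adjusted p = 3.39e-05). A difference between these 2 genes was not tested.

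The small heat shock protein family holds Hspb1 and the alpha-crystallins. Of 5 other small heat shock protein genes tested with T-5224, 2 were higher and 2 were lower, and both that fell did so by more than 2-fold. Cryab fell from 108 ± 0.877 to 49.8 ± 0.191 RPKM (log2 fold change -1.11, limma, adjusted p = 3.34e-09) and its neighbour Hspb2 from 19.1 ± 1.11 to 9.02 ± 0.824 RPKM (-1.04, adjusted p = 2.62e-07). Hsf2, another heat shock factor, fell from 10.5 ± 0.220 to 9.01 ± 0.446 RPKM (-0.22, adjusted p = 0.0190). The factor list held 2 tested genes, Hsf2 and a factor-binding protein, both lower. Of the cytosolic chaperonin and prefoldin, which fold actin and tubulin, 13 of 14 subunit genes were higher and 1 was lower (median 0.65), none beyond 2-fold.

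Hspd1 works in the mitochondrial matrix. In the list of mitochondrial chaperones and proteases, 9 of 10 genes were higher with T-5224 and none were lower (median 0.96). Hspe1, the co-chaperonin HSP10 of Hspd1, rose from 55.5 ± 0.668 to 108 ± 1.38 RPKM (log2 fold change 0.95, limma, adjusted p = 1.24e-08). Lonp1 (1.96), Hspa9 (1.89), Dnaja3 (1.47) and Clpp (1.40) rose by more than 2-fold, a protease, the mitochondrial HSP70, its HSP40 and a protease subunit. Trap1, the mitochondrial HSP90, was at 48.8 ± 0.168 and 51.4 ± 0.206 RPKM and did not pass (adjusted p = 0.220). In the endoplasmic reticulum, all 5 counterparts were higher (median 1.2). Hspa5, known as BiP, rose from 83.4 ± 4.73 to 1190 ± 4.10 RPKM (log2 fold change 3.83, adjusted p = 4.68e-13), beside Hyou1 (1.63), Dnajb9 (1.2) and Hsp90b1 (1.09).

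Of 10 further stress genes linked to heat shock factor 1 and tested with T-5224, 8 were higher and none were lower (median 0.99). Atf3, a stress-induced transcription factor, rose from 2.25 ± 0.0163 to 101 ± 0.623 RPKM (log2 fold change 5.20, limma, adjusted p = 2.73e-13), Hmox1, heme oxygenase 1, from 21.8 ± 0.498 to 508 ± 36.6 RPKM (4.51) and Sqstm1, an autophagy receptor, from 221 ± 3.56 to 1161 ± 35.8 RPKM (2.39). Zfand2a, a zinc finger protein induced by arsenite, rose by 1.41. These genes also answer to other stress factors, so they are not markers of heat shock factor 1 alone.

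With SB431542, where 10.2% of all genes tested were higher and 10.0% were lower, the lists gave the following counts. None of the 14 chaperonin and prefoldin genes, 5 endoplasmic reticulum counterparts and 2 tested genes of the factor list passed in either direction (limma). At an unadjusted p under 0.05 the numbers were, in this order, 5 higher and 1 lower, 0 higher and 1 lower, and 0. The share of all genes at this looser threshold was not counted. The 10.2% and 10.0% are at the adjusted threshold and are no background for these numbers. The counts at the adjusted threshold were 3 higher and 2 lower of 22 genes in the HSP70 system, 3 higher and 1 lower of 17 in the HSP90 system, 1 lower of 5 small heat shock protein genes, 2 higher of 10 mitochondrial genes, and 1 higher and 1 lower of 11 other stress genes. Hspa9 rose from 216 ± 8.12 to 255.5 ± 5.19 RPKM (SD, n = 3, log2 fold change 0.24, limma, adjusted p = 0.0179), and Rgs2, a regulator of G protein signaling, from 1.01 ± 0.0105 to 3.15 ± 0.169 RPKM (1.27, adjusted p = 0.000146), the single gene of the lists beyond 2-fold. The values of the other relatives did not pass, at log2 fold changes of -0.10 for Hsf2, -0.12 for Hsp90ab1, 0.16 for Hspe1, 0.09 for Trap1, -0.19 for Hspa5, -0.11 for Hsp90b1 and -0.10 for Dnaja1 (adjusted p from 0.0642 for Hspa5 to 0.389 for Hsf2).

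**Figure D5:**
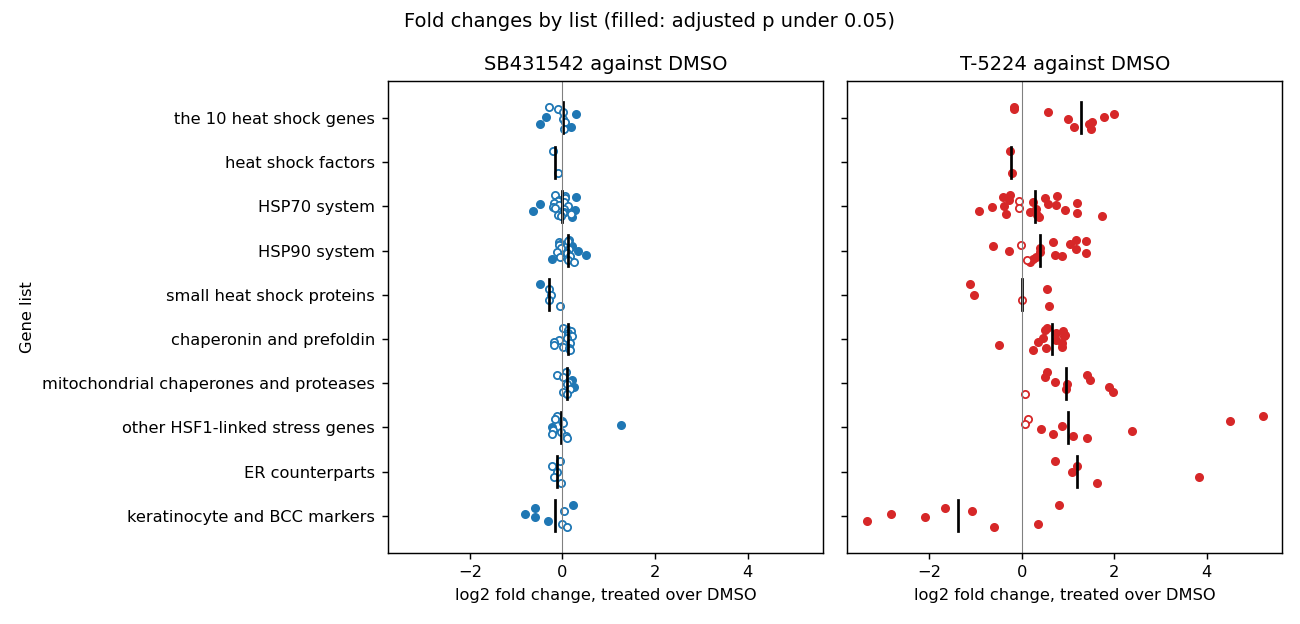
Log2 fold changes, treated over DMSO, of every tested gene by list, with SB431542 (left) and T-5224 (right). Each point is a gene, filled where the adjusted p was under 0.05, and black lines are list medians; with T-5224 the 10 heat shock genes have a median of 1.28 and the keratinocyte and BCC markers of -1.37.

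Other features of the libraries moved with the treatments. Keratins of basal keratinocytes were high with DMSO, with Krt5 at 4889 RPKM and Krt14 at 4076 RPKM in the SB431542 table. With T-5224, 6 of the 8 keratinocyte and BCC markers were lower and 2 were higher. Their summed level was 14661 to 15410 RPKM in the DMSO libraries and 2283 to 2394 RPKM in the T-5224 libraries, and Krt5 fell from 6001 ± 121 to 589 ± 13.6 RPKM. Krt14 (log2 fold change -2.82), Krt17 (-2.10), Gli1 (-1.66) and Itga6 (-1.08) also fell by more than 2-fold. In the SB431542 table the sum was 10665 to 10864 RPKM with DMSO and 7403 to 7940 RPKM with SB431542, and 4 of the 8 were lower and 1 was higher. Of 10 markers of other cells, 7 were listed in each table. Their sum was 28.1 to 31.3 RPKM with DMSO and 37.5 RPKM in both T-5224 libraries, and 12.5 to 17.4 RPKM with DMSO and 10.7 to 11.04 RPKM with SB431542, nearly all of it Pecam1, an endothelial marker, and Cd68, a macrophage marker, the only ones tested. With T-5224, Pecam1 fell (log2 fold change -1.27, limma, adjusted p = 1.27e-07) and Cd68 rose from 17.6 ± 1.34 to 33.0 ± 0.322 RPKM (0.89, adjusted p = 2.22e-07). With SB431542, Pecam1 fell (-0.97, adjusted p = 0.00103) and Cd68 did not pass (-0.04, adjusted p = 0.854). Pdgfra, Col1a2, Cdh5, Ptprc, Mlana, Dct, Des and Myog were unlisted or below 1 RPKM in every library. In RNA of whole cultures, fewer cells of a type and less RNA per cell cannot be told apart, and the part of these changes in the heat shock results was not tested.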

How the data were processed

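RNA-seq of ASZ001 cells was made with a stranded mRNA kit. Per the labels and the study's methods, TopHat and HOMER were the authors' tools, mm9 was their genome, and the deposited values are RPKM per gene and library. Read length, strand setting and the treatment of reads with several matches are not given in the sources used here. The study calls its replicates biological. Every column of values was used. The DMSO columns of the T-5224 table are numbered 1 and 2, and the labels number those libraries 4 and 5, so they were mapped by group.

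Gene names turned into dates made 22 rows of the SB431542 table and 23 of the T-5224 table unusable. All other genes whose mean RPKM reached 1 were tested on log2(RPKM + 0.5) with limma 3.58.1 in R 4.3.3 (moderated test, mean-variance trend, two-sided), within each table, with Benjamini-Hochberg adjustment over all genes tested. Fold changes on this scale understate those of low genes. The fit was tested on simulated data. A gene was called higher or lower at an adjusted p under 0.05, and more than 2-fold also at a log2 fold change beyond 1. A count test was not run, since RPKM are not counts.

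The 10 genes and the lists were chosen with earlier results of these data known. The genes named are the 10, those called beyond 2-fold in each list (at most the 6 of the largest size), and Hsf2, Hsp90ab1, Hspe1, Hspa9, Trap1, Hspa5, Hsp90b1 and Dnaja1. The values of 1 gene that this rule names are not reported here. Positions are from GENCODE vM1 on NCBIM37, and promoters from RefSeq on GRCm38.p6. The windows of 50 bases came from the longest coding transcript of each gene and were matched exactly on both strands. This length was chosen after the data were seen. Depth was estimated from genes with few reads and annotated lengths, and 46.3% to 60.7% of the values used lay within 0.05 of a whole read. Alternatives were other pseudocounts, filters, scalings and fold limits, no trend, Hspa1a and Hspa1b added, a replicate block and each library left out.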

Additional observations from a re-analysis of the deposited data

Results flagged for a closer look

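For 2 genes the libraries of the experiments moved in opposite directions. Every SB431542 library lay below every DMSO library of its table, and every T-5224 library lay above every DMSO library of its own. How many of all genes do this was not counted, so 2 of 10 cannot be set against a background. Of all genes tested, 10.0% were lower with SB431542 and 40.3% were higher with T-5224 (adjusted p under 0.05). On the log2 scale, Hspa1a was at -0.3559 after SB431542 and at 1.7848 after T-5224. Hspb1 was at -0.492 after SB431542 and at 1.4437 after T-5224. The difference between the inhibitors was not tested, since the tables were normalized separately. With SB431542, Hspa1a was near the threshold (limma, adjusted p = 0.0425), and its call was lost when its RPKM was added to that of Hspa1b. Hspb1 passed there (adjusted p = 0.0132), and its call was lost when any SB431542 library was left out (adjusted p up to 0.0666) and under no other alternative.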

How the results depend on the processing

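The rises with T-5224 held best among the alternatives run, none of which changed how reads with several matches were counted. All 8 kept their direction and threshold under every alternative run, and so 8 genes were higher under each, or 7 with Hspa1a and Hspa1b added, which merges 2 genes. Between 6 and 7 were beyond 2-fold when any library was dropped. The 2 falls did not hold as well: without the mean-variance trend 1 was lost, and between 0 and 2 were lower when any library was dropped. Dropping the fold limit left 2 down with T-5224.

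The SB431542 calls were fragile. In place of 2 genes, 1 was higher with quantile normalization, median centring, no filter on low values, no mean-variance trend or the replicate block, and between 0 and 2 were higher when any library was dropped. In place of 2 genes, 1 was lower with no filter, a mean RPKM of at least 5, quantile normalization, Hspa1a and Hspa1b added or the replicate block, and between 0 and 4 were lower when any library was dropped, the most without DMSO replicate 1. Without a fold limit, 2 were up and 2 were down. The replicate block lost the calls of Hspa1a (adjusted p = 0.0988) and Hspd1 (adjusted p = 0.127). Deviations of libraries with the same number correlated at -0.148, 0.151 and -0.0949 for replicates 1, 2 and 3. These values show no pairing by number, but with so few libraries they cannot exclude one. No block was possible for T-5224, whose labels share no numbers with their DMSO.

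Turned directions all belonged to SB431542 values that had not passed. Quantile normalization gave log2 fold changes of -0.0137 for Hsf1, -0.0298 for Hspa1b and -0.0656 for Hspa8, and a median of -0.0477 over the 10 genes. With 1 library dropped, Hsf1 ranged from -0.0171 (without DMSO replicate 2) to 0.0389 and turned also without SB431542 replicate 2 (-0.0112), and Hspa1b ranged from -0.0769 (without DMSO replicate 1) to 0.0762. Hspa1b was at -0.0007 with Hspa1a added. Of 253 values of single genes, 215 kept direction and side of the threshold, 29 lost it, 2 gained it and 7 turned. The causes were not tested. A library left out leaves 1 of 2 in a T-5224 arm, and the lone one is then assumed to vary like the others.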
